A study of Mus musculus with 2 samples.

Results

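The 9 genes described here encode 8 granzymes (Gzma, Gzmb, Gzmc, Gzmd, Gzme, Gzmf, Gzmk and Gzmm) and perforin (Prf1). They were taken by symbol, and all 9 were among the 32285 genes listed in both count matrices. Cells of whole uteri from mice aged 6 months were sequenced one by one for RNA in droplets, in which each captured molecule carries a unique molecular identifier (UMI). The control library came from Prickle1 f/f mice, whose Prickle1 gene, encoding a planar cell polarity protein, is floxed. The cKO library came from Prickle1 f/f Ltf-cre mice, which carry the same floxed alleles and a Cre recombinase driven from the lactoferrin gene Ltf, a gene of the uterine epithelium. Each library was made from a pool of 3 mice. With 1 library per group there were no replicates and no tests, and the effect of genotype cannot be told apart from that of the animals or of handling each pool. All intervals are 95% and cover counting error only.

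Cytotoxic lymphocytes store granzymes, which are serine proteases, together with perforin in secretory granules. Perforin forms pores in the membrane of a target cell, and granzymes pass through them. Granzyme A cleaves after basic residues and granzyme B after aspartate. In the mouse, Gzmc, Gzmd, Gzme, Gzmf, Gzmg and Gzmn form a group of closely related genes beside Gzmb, known from natural killer (NK) cells of the pregnant uterus. The uterus holds tissue-resident NK cells, marked by the integrin Itga1, and conventional NK cells, marked by Itga2 and Itgam.

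In GRCm38 (GENCODE M21), 7 granzyme genes, of which 5 are among the 9, lie on the minus strand of chromosome 14 between 56117626 and 56262260, a span of 145 kb. Gzme (ENSMUSG00000022156) runs from 56117626 to 56120625, Gzmd (ENSMUSG00000059256) from 56129556 to 56132608, and Gzmf (ENSMUSG00000015441) from 56205263 to 56211417. Gzmc (ENSMUSG00000079186) runs from 56231441 to 56234656 and Gzmb (ENSMUSG00000015437) from 56258838 to 56262260. Gzma (ENSMUSG00000023132, 113093825 to 113100981) and Gzmk (ENSMUSG00000042385, 113171608 to 113225908) are on the minus strand of chromosome 13. Prf1 (ENSMUSG00000037202, 61297833 to 61304680) and Gzmm (ENSMUSG00000054206, 79689020 to 79695261) are on the plus strand of chromosome 10.

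The 250 bases before the start of Gzmc, Gzmd, Gzme and Gzmf are shown because they share a pair of short motifs. Those of Gzma and Gzmb, which lack the pair, are shown beside them, although Gzmb was often found in the same cells as Gzmc, as described further on. The sequences are from RefSeq (GRCm38.p6), on the minus strand, 5′ to 3′. Capitals mark matches to a Runx motif (TGTGGTT) or an ETS motif (CAGGAAGT) on either strand.
Gzmc, chr14:56234658-56234907: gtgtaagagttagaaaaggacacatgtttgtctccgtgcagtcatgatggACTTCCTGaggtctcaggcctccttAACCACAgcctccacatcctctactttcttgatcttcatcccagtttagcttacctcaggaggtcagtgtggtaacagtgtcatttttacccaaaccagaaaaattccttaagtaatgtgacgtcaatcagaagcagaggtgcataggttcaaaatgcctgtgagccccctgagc
Gzmd, chr14:56132594-56132843: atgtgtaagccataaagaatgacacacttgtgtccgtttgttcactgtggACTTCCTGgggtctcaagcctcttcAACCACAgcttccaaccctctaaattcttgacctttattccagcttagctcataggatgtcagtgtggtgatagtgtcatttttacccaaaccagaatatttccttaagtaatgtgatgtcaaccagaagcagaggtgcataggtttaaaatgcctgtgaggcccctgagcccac
Gzme, chr14:56120626-56120875: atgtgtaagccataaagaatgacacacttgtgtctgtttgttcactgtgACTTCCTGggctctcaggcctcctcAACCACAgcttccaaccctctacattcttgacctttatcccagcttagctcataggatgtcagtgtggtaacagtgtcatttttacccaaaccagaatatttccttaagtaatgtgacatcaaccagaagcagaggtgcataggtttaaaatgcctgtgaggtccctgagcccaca
Gzmf, chr14:56211408-56211657: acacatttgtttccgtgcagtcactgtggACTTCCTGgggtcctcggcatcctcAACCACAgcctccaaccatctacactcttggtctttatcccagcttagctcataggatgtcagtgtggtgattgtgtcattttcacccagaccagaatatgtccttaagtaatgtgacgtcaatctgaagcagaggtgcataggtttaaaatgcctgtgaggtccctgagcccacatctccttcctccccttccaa
Gzmb, chr14:56262335-56262584: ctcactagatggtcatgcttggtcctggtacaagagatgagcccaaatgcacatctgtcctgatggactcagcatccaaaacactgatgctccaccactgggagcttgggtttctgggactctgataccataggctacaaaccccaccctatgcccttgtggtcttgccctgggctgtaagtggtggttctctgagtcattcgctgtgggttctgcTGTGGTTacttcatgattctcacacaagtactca
Gzma, chr13:113100982-113101231: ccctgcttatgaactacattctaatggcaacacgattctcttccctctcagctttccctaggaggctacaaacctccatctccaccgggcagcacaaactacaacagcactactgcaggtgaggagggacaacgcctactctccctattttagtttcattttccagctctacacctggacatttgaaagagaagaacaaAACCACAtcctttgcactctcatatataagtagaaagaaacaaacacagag

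The Runx motif was found before 6 of the 9 genes (Gzma, Gzmb, Gzmc, Gzmd, Gzme and Gzmf), against 4.40% of all 32851 promoters of the same length. The ETS motif was found before 5 (Gzmc, Gzmd, Gzme, Gzmf and Prf1), against 2.69%. In Gzmc, Gzmd, Gzme and Gzmf the Runx match began 175, 175, 176 and 196 bases before the start, and the ETS match 25 bases further upstream in each. This orientation and spacing, searched for after it was seen, occurred in 5 of the 32851 promoters, those of Gzmc, Gzmd, Gzme, Gzmf and Gzmg. Those of Gzmc, Gzmd, Gzme and Gzmf are alike over much of their length, and that of Gzmg was not aligned. Identical aligned bases made up 94.8% between Gzmd and Gzme and 80.5% between Gzmc and Gzmd. The lowest pair was Gzmc and Gzmf, at 70.2%, against 46.3% between Gzmb and Gzmc. A T-box motif (GGTGTGA), in 3.33% of promoters, was found before Gzmk and Gzmm. A STAT motif (TTCNNNGAA), in 7.02% of promoters, was found before Gzmm. A match is a string of letters and was not tested for binding.

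The likeness also bears on the counts. The transcripts of Gzmd and Gzme were 90.0% identical. Of the runs of 60 bases in the last 400 bases of the transcript, 6.74% for Gzmd, 4.11% for Gzme and 6.45% for Gzmf also occurred in another granzyme, so their separate counts are uncertain. No such run was shared by Gzma, Gzmb, Gzmc, Gzmk, Gzmm or Prf1.

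The libraries held 45035801 UMIs (control) and 57145553 UMIs (cKO). Of their barcodes, 3653 and 4950 passed as cells, with at least 500 genes and at most 20% mitochondrial UMIs. Before the mitochondrial limit, 283 of 3936 and 46 of 4996 barcodes with enough genes were over it. The 2 libraries shared 5 cell barcodes. Prickle1 was higher in the library labelled cKO (8.24 UMIs per 1000000 UMIs, written CPM below, 7.49 to 9.05) than in control (2.65, 2.16 to 3.23). In cells with at least 3 epithelial markers it was at 3.89 (2.31 to 6.15) in cKO and 0.932 (0.552 to 1.47) in control. The counts are of 3′ ends and the floxed exons are not given in the sources used here, so Prickle1 does not check the labels, and cKO below means the library so labelled. One label calls both samples wild-type, whereas the titles name the genotypes.

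Cells were sorted into 5 groups by UMIs of gating genes. The Ncr1/Eomes gate took cells with a UMI of Ncr1 or Eomes, NK cell genes, and none of Cd3e, a T cell receptor component. It held 123 control cells (3.37%, 2.81 to 4.004) and 683 cKO cells (13.8%, 12.8 to 14.8). Cells with at least 3 of 4 epithelial markers numbered 1124 of the 3653 control cells (30.8%) and 105 of the 4950 cKO cells (2.12%), and without them the gate held 4.27% (3.52 to 5.13) and 13.9% (12.9 to 14.9). T cells with Trdc, the gamma delta receptor constant gene, and Cd3e numbered 78 and 336. Other Cd3e-positive T cells numbered 81 and 123, C1qa-positive cells (macrophages) 276 and 148, and Flt3-positive cells (dendritic cells) 52 and 131. Of 10 NK markers, the 8 that did not choose the gate were all detected there in both libraries, but their levels went in different directions. Il2rb was 2.24-fold higher in cKO (2.13 to 2.36) and Klrb1c 5.23-fold lower (3.41 to 8.06), and the gating gene Ncr1 was 2.50-fold lower (1.58 to 3.90). A single gating UMI was all that placed 48 control cells (39.0%) and 201 cKO cells (29.4%) there. In control, 15 cells of the gate carried at least 3 of 4 epithelial markers and held 97.3% of the gate's epithelial UMIs. The 4 epithelial markers summed to 2477 CPM in the control gate and 257 CPM in the cKO gate. Of the other marker lists, 8 macrophage markers summed to 166 and 72.4 CPM in the gate, 8 dendritic markers to 213 and 707 CPM, 4 stromal markers to 1234 and 1548 CPM, and 4 cycling genes to 261 and 25.1 CPM. B or plasma cell markers summed to 3.70 and 206 CPM, of which Jchain gave 1.48 and 200.5 CPM from 0.813% and 0.732% of cells. Other innate lymphoid markers summed to 235 and 446 CPM, with Il7r at 20.7 and 87.6 CPM, and Il1rl1 had 0 and 102 UMIs. T cell markers other than Cd3e summed to 447 and 549 CPM, gamma delta T cell markers to 73.3 and 96.8 CPM, mast cell markers to 81.5 and 153 CPM, smooth muscle markers to 42.2 and 184 CPM, endothelial markers to 179 and 211 CPM, and neutrophil markers to 0.741 and 3.48 CPM. The part of these other cell types in the results below was not tested, except where values without them are given.

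The Ncr1/Eomes gate was the main source of these transcripts. It held 66.3% of all UMIs of the 9 genes in control (2088 of 3150) and 64.2% in cKO (4032 of 6280). Over all cells the 9 genes summed to 83.6 CPM (80.7 to 86.6) in control against 119 CPM (116 to 122), with a cKO to control ratio of 1.42 (1.36 to 1.48). Without the cells with at least 3 epithelial markers this turned, with 167 and 129 CPM and a ratio of 0.773 (0.740 to 0.807). Within the gate control was at 1547 CPM (1481 to 1615) against 739 CPM (716 to 762) for cKO, and the ratio was 0.478 (0.453 to 0.504). The cKO library thus had a larger share of its cells in the gate, but fewer of these transcripts among the UMIs of the gate. Without cells that carried at least 3 epithelial or at least 3 stromal markers, 103 and 645 cells were left, with 2849 and 886 CPM, a ratio of 0.311 (0.295 to 0.328). The part of these other markers in the difference was not tested further.

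**Figure D1:**
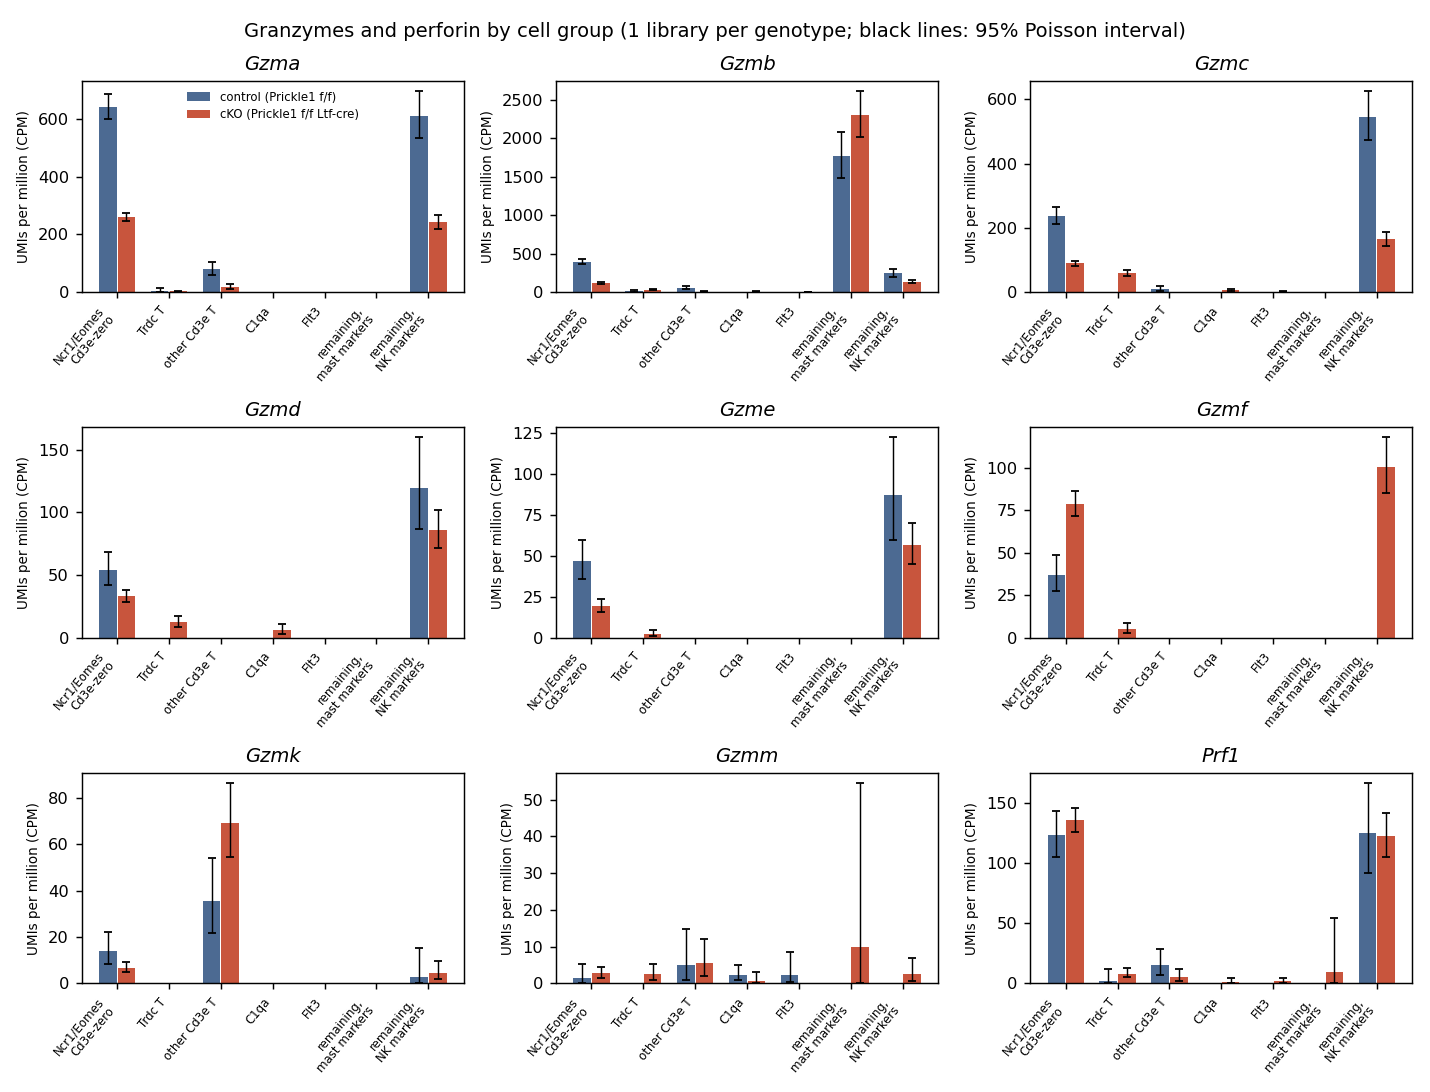
Level of each of the 9 genes (vertical axis, CPM over the group's UMIs) by cell group in the 2 libraries. Black lines are 95% Poisson intervals. Gzma, Gzmc, Gzmd, Gzme, Gzmf and Prf1 are highest in the groups with NK genes, Gzmb in cells with mast cell markers and Gzmk in other Cd3e-positive T cells.

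Of the 9 genes, 8 had at least 20 UMIs over both Ncr1/Eomes gates. At least 2-fold lower in cKO were 5 of the 8 (Gzma, Gzmb, Gzmc, Gzme and Gzmk), and 1 of 8 (Gzmf) was at least 2-fold higher. Over all 11404 genes with that many UMIs in the gate, 10.6% were at least 2-fold lower and 10.8% at least 2-fold higher. The median log2 ratio was -1.17 over the 8 genes and 0.23 over all genes tested. Relative to that median gene, Gzmf was less than 2-fold higher. Without cells with at least 2 cycling genes (8 control and 6 cKO cells), 3 of the genes (Gzmb, Gzmc and Gzme) were at least 2-fold lower and 0 at least 2-fold higher. Without cells with epithelial or stromal markers it was 6 and 0.

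Gzma, a tryptase, had 868 UMIs in 44 control cells and 1415 UMIs in 152 cKO cells. This was 643 CPM (601 to 687) in control and 259 CPM (246 to 273) in cKO, 2.48-fold lower (2.28 to 2.70). The share of cells with a Gzma UMI was 35.8% (27.3 to 44.9) and 22.3% (19.2 to 25.6). Positive cells held a median of 8.5 UMIs in control and 4 in cKO. Thinned to 1000 UMIs per cell, 28.5% of 123 and 12.6% of 681 cells kept a Gzma UMI, so the share stayed lower in cKO at equal depth. No Gzma UMI was found in the 276 control or 148 cKO cells with C1qa, where a count of 0 (3 counts of the total) allows up to 1.09% and 2.03% of cells with a UMI, at this depth.

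Gzmb, which cleaves after aspartate and starts apoptosis in target cells, had 527 UMIs in 33 control cells and 624 UMIs in 112 cKO cells of the gate. It was at 390 CPM (358 to 425) and 114 CPM (106 to 124), 3.41-fold lower in cKO (3.03 to 3.84). The share of cells with a UMI was 26.8% (19.2 to 35.6) and 16.4% (13.7 to 19.4), and 13.8% and 5.73% after thinning. Gzmc, the chromosome 14 neighbour of Gzmb, had 320 UMIs in 28 cells and 488 UMIs in 83 cells. Its level was 237 CPM (212 to 265) and 89.4 CPM (81.7 to 97.7), 2.65-fold lower in cKO (2.30 to 3.06). Both genes were lower in level and in share of cells, as Gzma was.

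Gzmd, Gzme and Gzmf, further along the same cluster, were sparser, and single cells decided their control levels. Gzmd had 73 control UMIs in 9 cells, of which 50 (68.5%) were in 1 cell, and 180 cKO UMIs in 50 cells, at 54.1 and 33.0 CPM (ratio 0.610, 0.462 to 0.812). Without the top cell of each library it was at 17.2 and 29.4 CPM, a ratio of 1.71 (1.10 to 2.77), so its direction turned. Gzme had 63 UMIs in 11 control cells, 49.2% of them in 1 cell, and 106 UMIs in 39 cKO cells. It was at 46.7 and 19.4 CPM, 2.40-fold lower (1.73 to 3.31), and without the top cells at 23.9 and 16.2 CPM (ratio 0.675, 0.446 to 1.05). Gzmf had 50 UMIs in 3 control cells, with 41 (82.0%) in 1 cell, and 429 UMIs in 19 cKO cells. It was at 37.0 and 78.6 CPM, 2.12-fold higher in cKO (1.58 to 2.90). Without the top cells the ratio was 9.39 (4.89 to 20.7), and without cells with epithelial or stromal markers it was 1.39 (1.03 to 1.90), under 2-fold. The share of cells with a Gzmf UMI differed little, at 2.44% (0.506 to 6.96) and 2.78% (1.68 to 4.31). The cKO cells with Gzmf held a median of 15 Gzmf UMIs, and the 3 control cells a median of 8.

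**Figure D2:**
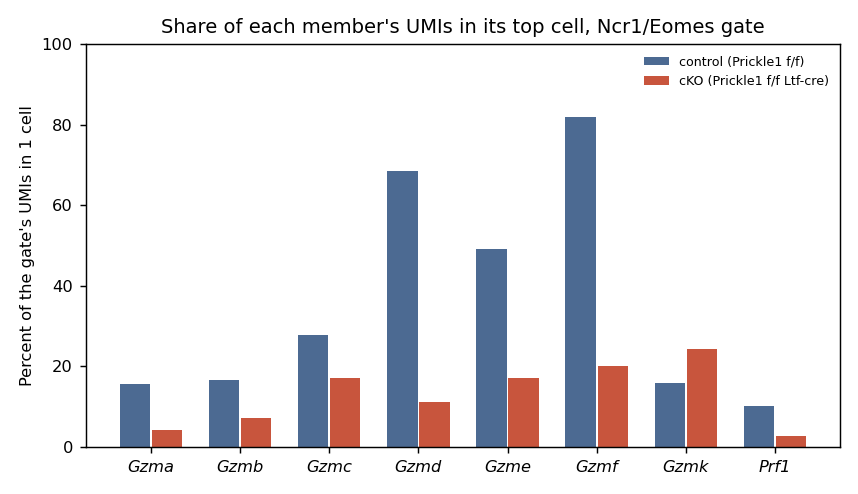
Percent of a gene's UMIs in the Ncr1/Eomes gate (vertical axis) that came from its 1 highest cell, for 8 genes in the 2 libraries. In control, 68.5% of Gzmd, 49.2% of Gzme and 82.0% of Gzmf UMIs came from 1 cell, against 11.1%, 16.98% and 20.05% in cKO.

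Prf1, the pore-forming protein, was the most widely detected of the 9 in the gate. It had 166 UMIs in 55 control cells and 738 UMIs in 244 cKO cells, or 123 CPM (105 to 143) and 135 CPM (126 to 145). The ratio of 1.10 (0.928 to 1.31) included 1. The share of cells with a UMI was 44.7% (35.7 to 53.9) and 35.7% (32.1 to 39.4), and no order is read from it because the level did not follow. Without the cells with epithelial or stromal markers, Prf1 was at 228 and 159 CPM, a ratio of 0.699 (0.589 to 0.833). With the cells kept, Prf1 thus went from a ratio whose interval included 1 to a lower one. Gzma, Gzmb and Gzmc had ratios of 0.269, 0.187 and 0.244 in those cells. The top cell held 10.2% and 2.71% of Prf1 UMIs, the lowest shares among the 8 genes in both libraries.

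Gzmk, a granzyme known mainly from T cells, had 19 UMIs in 10 control cells and 37 UMIs in 19 cKO cells of the gate, at 14.1 and 6.78 CPM (ratio 0.482, 0.270 to 0.887). Without cycling cells the ratio was 0.560 (0.296 to 1.12), which included 1, and after thinning, where control kept 0 Gzmk UMIs, the direction turned, so no order is read for Gzmk. Gzmm, known from innate lymphocytes, had 2 and 15 UMIs there and was not compared. Most Gzmm UMIs lay outside all gates and marker groups, with 78 of 91 in control and 91 of 125 in cKO, at 2.49 and 2.38 CPM in those remaining cells. Its gate level of 1.48 CPM (0.179 to 5.35) and 2.75 CPM (1.54 to 4.53) was within counting error of that, so Gzmm was not detectably enriched in the gate at this depth.

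**Figure D3:**
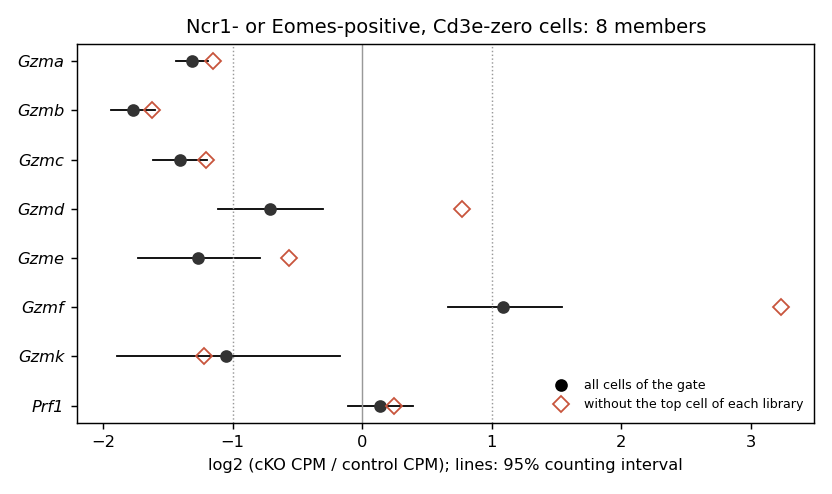
Log2 ratio of cKO to control CPM (horizontal axis) for 8 genes in the Ncr1/Eomes gate, with 95% counting intervals, and the same without the highest cell of each library. Gzma, Gzmb and Gzmc stay more than 2-fold lower either way, while Gzmd moves to the other side of 0.

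A few cells carried most of these UMIs. In the gate, 9 of 123 control cells and 37 of 683 cKO cells held 50% or more of the UMIs of the 9 genes. The highest control cell had 183 of them in 5767 UMIs, with 87 of Gzmb and 89 of Gzmc and none of Gzma. The next had 50 of Gzmd, 36 of Gzmc, 35 of Gzmb and 20 of Gzme, again with no Gzma. The third had 135 of Gzma, 3 of Gzmb and none of Gzmc or Gzmd. In cKO the highest cell had 85 of Gzmf and 33 of Gzmb, the next 86 of Gzmf, 18 of Gzme and 17 of Gzmd, and the third 83 of Gzmc. All 6 cells had UMIs of Il2rb and Klre1, NK genes that did not choose the gate.

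Gzma and the Gzmc group were set against each other cell by cell. Cells with Gzma and none of Gzmc to Gzmf made up 26.0% of the control gate (32 cells) and 16.8% of the cKO gate (115 cells). Cells with Gzmc, Gzmd, Gzme or Gzmf and no Gzma made up 17.9% (22 cells) and 12.9% (88 cells). Both kinds of UMI were found in 12 and 37 cells, and neither in 57 (46.3%) and 443 (64.9%). Gzmc to Gzmf UMIs were found in 27.3% (14.96 to 42.8) of Gzma-positive and 27.8% (18.3 to 39.1) of Gzma-zero control cells, and in 24.3% (17.8 to 32.0) and 16.6% (13.5 to 20.01) of cKO cells. The intervals overlapped in both libraries.

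**Figure D4:**
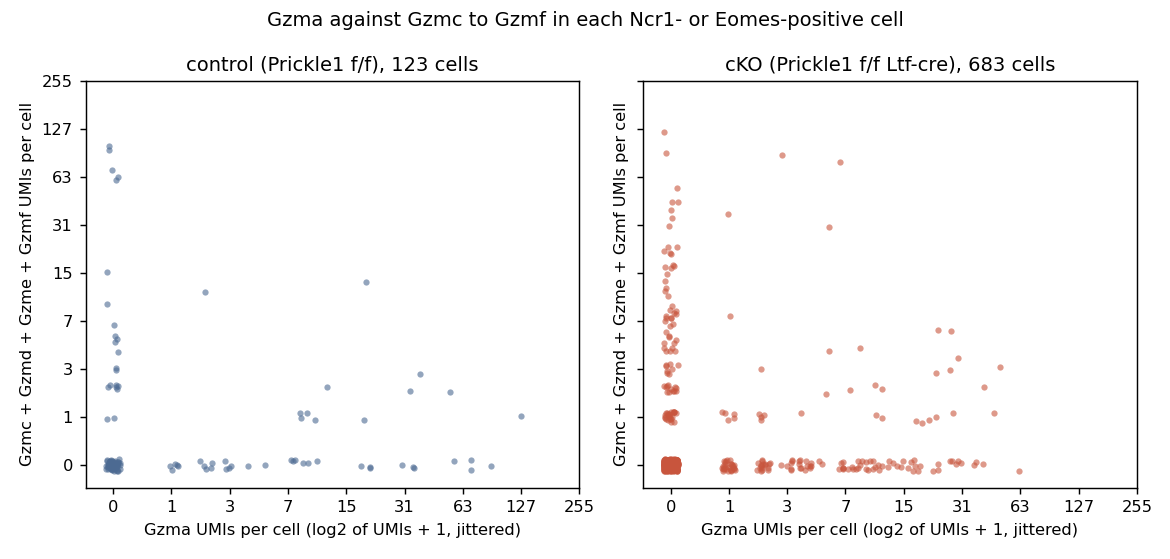
Gzma UMIs (horizontal axis) against summed Gzmc, Gzmd, Gzme and Gzmf UMIs (vertical axis) in each cell of the Ncr1/Eomes gate, both as log2 of UMIs + 1 with tick labels in UMIs and random jitter. The left panel has 123 control cells and the right panel 683 cKO cells, and cells with the Gzmc group lie at 0 Gzma in 64.7% (control) and 70.4% (cKO) of cases, against 64.2% and 77.7% of all cells of the gate.

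Gzmb went with Gzmc. In control, 67.9% (47.6 to 84.1) of the 28 Gzmc-positive cells had Gzmb, against 14.7% (8.30 to 23.5) of the other 95. In cKO it was 54.2% (42.9 to 65.2) of 83 cells against 11.2% (8.76 to 13.96) of 600. Depth differed too, with a median of 7088.5 UMIs in positive and 5664 in negative control cells, and 8147 and 5470.5 in cKO. In cKO, 25 of 50 Gzmd-positive cells (35.5% to 64.5%) had Gzme, against 2.21% (1.21 to 3.68) of the rest, for which shared reads between the near-identical genes were not separated. Gzmb-positive cells had Prf1 in 78.8% (61.1 to 91.0) of control and 68.8% (59.3 to 77.2) of cKO cases, against 32.2% and 29.2% of Gzmb-zero cells. Of the 10 control cells with Gzmk, 90.0% (55.5 to 99.7) had Gzma, and of the 19 in cKO, 36.8% (16.3 to 61.6), against 30.97% (22.6 to 40.4) and 21.8% (18.8 to 25.2) of Gzmk-zero cells. The median depth of the Gzmk-positive control cells was 11011.5 UMIs against 6126 in the others, and 5602 against 5611.5 in cKO.

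Integrin Itga1, a mark of tissue-resident NK cells, was more frequent with the Gzmc group than with Gzma. It was found in 68.2% of control and 70.5% of cKO cells with the Gzmc group but no Gzma, and in 12.5% and 34.8% of cells with Gzma only, and in 33.3% and 62.2% of cells with both. Itgam, a conventional NK mark, was found in 50% and 14.8% of cells with the Gzmc group only and in 37.5% and 15.7% of those with Gzma only, so it did not mirror Itga1. The median depth was 6821.5 and 8473.5 UMIs in the former and 4838.5 and 4969 in the latter. Gzmb was at 2522 and 346 CPM in the former and 233 and 55.3 CPM in the latter. Tnfsf10, which encodes the death ligand TRAIL, was found in 59.1% and 33.0% of the former and 3.13% and 10.4% of the latter. Klrg1, an inhibitory receptor, was found in 54.5% and 31.8%, against 28.1% and 11.3%. In the whole gate Itga1 was at 107 CPM in control and 186 CPM in cKO, 1.75-fold higher (1.47 to 2.09), and Itgam was at 80.8 and 20.7 CPM, 3.90-fold lower (2.97 to 5.12). The other marks moved in part with these. Of the resident marks, Cd69 had a ratio of 0.856 (0.661 to 1.12) and Tnfsf10 of 0.796 (0.577 to 1.12). Of the conventional marks, Itga2 had a ratio of 0.883 (0.644 to 1.23), Klrg1 of 0.729 (0.538 to 1.00) and Zeb2 of 1.29 (1.08 to 1.55), while Cx3cr1, with only 7 and 2 UMIs, had a ratio of 0.071 (0.0072 to 0.371) and S1pr5 had 2 and 0 UMIs. Cx3cr1 was found in only 1.63% of control and 0.146% of cKO cells, so no order is read for it. Itgam was thus lower in cKO, and Zeb2 was not. Of 7 macrophage markers with 20 UMIs, 6 were also at least 2-fold lower in the gate, against 10.6% of all genes. The part of macrophage RNA in the Itgam difference was not tested. None of these marks was recomputed without cells carrying epithelial or stromal markers.

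The CPM of Gzma, Gzmb and Gzmc was lower in cKO both with and without Itga1. The share of Itga1-positive cells with Gzma did not differ, however, at 21.1% in control and 21.3% in cKO. In Itga1-positive cells (38 control, 296 cKO) Gzmb was 6.04-fold lower in cKO (5.30 to 6.87), Gzmc 4.72-fold (4.05 to 5.49) and Gzma 3.95-fold (3.44 to 4.52). In Itga1-zero cells (85 and 387) the same genes were 2.28-fold (1.70 to 3.05), 1.66-fold (1.07 to 2.55) and 1.82-fold (1.62 to 2.03) lower. Gzmf was higher in Itga1-positive cells (ratio 1.46, 1.06 to 2.07). In Itga1-zero cells it had only 9 and 3 UMIs and was lower (ratio 0.120, 0.021 to 0.482). Prf1 was lower in Itga1-positive cells (225 and 150 CPM, ratio 0.669, 0.531 to 0.850), and was found in 60.5% and 39.9% of them. In Itga1-zero cells its level was higher (80.8 and 119 CPM, ratio 1.48, 1.15 to 1.92). Its share of those cells was not higher (37.6% and 32.6%), so no order is read for Prf1 there. Split by the conventional marks, Gzma and Gzmb were lower in cKO on both sides. This split did not separate conventional from resident cells. Itga1 was found in 36.8% (control) and 52.9% (cKO) of cells with these marks, against 25.8% and 39.1% of cells without. Gzmc was 2.95-fold lower (2.45 to 3.54) in cells with Itga2, Itgam or Klrg1, but in the 66 control and 473 cKO cells without them its ratio of 0.774 (0.578 to 1.05) included 1. Whether the ratios differ between the subsets was not tested beyond these intervals.

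Cycling genes went with Gzma in control only. Of 4 cycling genes (Mki67, Top2a, Ccnb1 and Cdk1), at least 2 were found in 8 control cells, which had Gzma at 1413 CPM in 87.5% of them, and in 6 cKO cells with no Gzma. These cells were deep, with a median of 15196.5 UMIs in control and 13860 in cKO. The other cells of the gate had medians of 5925 and 5580 UMIs. Without these cells Gzma was at 501 and 263 CPM, a ratio of 0.526 (0.477 to 0.581), or 1.90-fold lower, which ends its place among the genes at least 2-fold lower. Gzmb was 3.42-fold lower without them (3.02 to 3.87), close to its value in the whole gate.

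Other genes of the pathway were counted by list, to be read against the 10.8% of all genes at least 2-fold higher and 10.6% at least 2-fold lower in the gate. The lists were taken over the whole gate and were not recomputed without cells carrying epithelial or stromal markers. Leaving those cells out took the Prf1 ratio from 1.10 to 0.699, so the ratios here hold for the whole gate only. Of 11 genes for granule contents, processing or release, all had 20 UMIs or more, 0 were at least 2-fold higher and 1 (Ctsl, a lysosomal protease) at least 2-fold lower, with a median log2 ratio of 0.30 against 0.23 over all genes. Ctsc, which activates granzymes by removing their propeptide, was at 74.8 and 102 CPM (ratio 1.37, 1.10 to 1.71). Srgn, the serglycin core that packs granzymes, was at 525 and 827 CPM (1.58, 1.46 to 1.71), and Nkg7, a granule membrane protein, at 121 and 138 CPM (1.14, 0.965 to 1.36). Of 5 granzyme inhibitor genes, 1 was at least 2-fold higher: Serpinb9, the inhibitor of granzyme B, at 232 and 687 CPM (2.96, 2.64 to 3.33). Gzmb and Serpinb9 thus stood on opposite sides in the same gate.

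In the next lists a count of 1 is near the share over all genes (10.8% higher, 10.6% lower). These lists too were taken over the whole gate, with cells carrying epithelial or stromal markers kept. Of 8 other effector genes with 20 UMIs, 1 was higher (Xcl1, a chemokine for dendritic cells, 104 and 238 CPM) and 1 lower (Ccl4, a chemokine, 144 and 43.8 CPM), with a median log2 ratio of 0.12. Fasl, the death ligand of the perforin-independent pathway, was at 110 and 209 CPM (ratio 1.91, 1.61 to 2.28), and Ifng at 10.4 and 10.99 CPM (1.06, 0.585 to 2.05). Of 7 transcription factor genes, 1 was higher (Runx3, 545 and 1291 CPM) and 1 lower (Prdm1, which encodes Blimp-1, 35.6 and 17.8 CPM). Eomes, which itself chose most cells of the gate, was at 230 and 414 CPM, and Tbx21, encoding T-bet, at 31.1 and 49.1 CPM. Of 8 cytokine and receptor genes, 1 was higher (Il2rb, the shared receptor chain of IL-2 and IL-15, 1266 and 2841 CPM). Lower were 3: Il12rb1 (10.4 and 2.57 CPM), Il18r1 (35.6 and 9.71 CPM) and Il18rap (47.4 and 14.3 CPM), which encode receptor chains for IL-12 and IL-18. Il12rb2, the other IL-12 receptor chain, was at 71.9 and 94.2 CPM (ratio 1.31, 1.05 to 1.65). Of 9 neighbours of the chromosome 14 granzymes, only Cma1, a mast cell chymase, had 20 UMIs (16.3 and 1.65 CPM). Gzmg had 0 and 2 UMIs in the gate and Gzmn none in either library.

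For the 7 genes with at least 50 UMIs in the cKO gate (all but Gzmk and Gzmm), other genes were ranked by correlation over the 1142 cKO cells of the Ncr1/Eomes and both T cell gates, among up to 8820 genes detected in at least 5% of those cells. Gzmb and Gzmc came first for each other (r = 0.50 in cKO and 0.66 over 282 control cells). Prf1 came first for Gzma (0.38 and 0.27), with AW112010 and Fcer1g next. For Prf1 the first were AW112010 (0.44 and 0.48), Gzmb (0.43 and 0.53) and Irf8 (0.41 and 0.49). Gzmc came first for Gzmd (0.22 and 0.38) and for Gzme (0.28 and 0.46), and Gzmb for Gzmf (0.35 and 0.19). Cells of 1 library share its depth and preparation, so these values describe the library only.

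Cells that lacked Ncr1 and Eomes UMIs were examined in the same way. Among cells in none of the 5 gates, 49 control and 233 cKO cells had at least 3 of the 10 NK markers, a split chosen after values were seen. In these cells Gzma was at 613 and 242 CPM, 2.53-fold lower in cKO (2.14 to 3.00). Gzmc was 3.33-fold lower (2.75 to 4.03), with 60.2% of its control UMIs in 1 cell, and Gzmb 1.83-fold lower (1.41 to 2.36). Prf1 was at 125 and 122 CPM (ratio 0.978, 0.704 to 1.38). Gzmf had 0 UMIs in control and 150 UMIs in 15 cKO cells, at least 12.4-fold higher against a floor of 3 UMIs. The share of cells with Gzma, at 16.3% (7.32 to 29.7) and 17.6% (12.9 to 23.1), was not lower in cKO, unlike in the gate.

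In gamma delta T cells the 9 genes were nearly absent from control. There were 5 UMIs in 3 of 78 control cells and 324 UMIs in 25 of 336 cKO cells, or 10.7 CPM (3.48 to 25.03) and 122 CPM (109 to 136), a ratio of 11.3 (4.81 to 35.2). Gzmb had 3 UMIs in 1 control cell and 81 UMIs in 13 cKO cells, at 6.43 and 30.4 CPM, a ratio of 4.73 (1.56 to 23.4). As a mean of cells the log2 ratio of Gzmb was 0.038, with no difference left. No Gzmc UMI was found in control against 158 in cKO, at least a 9.22-fold difference, and 92 of the 158 (58.2%) were in 1 cell. Its log2 ratio with 0.5 UMI added was 5.79, and 1.58 after thinning. Gzmd had 0 and 33 UMIs, 26 of them in 1 cell, and after thinning its log2 ratio was 0.20. Over all genes with 20 UMIs in this gate, 10.5% were at least 2-fold higher in cKO and 4.98% at least 2-fold lower.

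The gamma delta cells behind these counts were few, deep and rich in NK genes. Leaving Gzmm aside, 20 cKO cells held 317 UMIs, and 13 of them, with at least 3 NK markers, held 291 (91.8%). Only 38 of the 336 cells (11.3%) had that many NK markers. The median depth of the 20 was 16155 UMIs, against 4715.5 in the gate. Of the 20, 7 were over the doublet score limit, and they held 94 UMIs (29.7%). The highest cell had 29724 UMIs, of which 92 were Gzmc, 84 Il2rb, 10 Klre1, 5 Trdc and 6 Cd163l1. Thinned to 1000 UMIs, 2.08% of 336 cKO cells and 1.30% of 77 control cells kept a UMI of the 9 genes. The part of depth and of mixed cells in this difference was not tested further.

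In other Cd3e-positive T cells Gzmk was the highest member in cKO only. In control Gzma and Gzmb had more UMIs than Gzmk, with 47 and 29. Gzmk had 21 UMIs in 10 of 81 control cells and 75 UMIs in 24 of 123 cKO cells, at 35.4 CPM (21.9 to 54.2) and 69.0 CPM (54.3 to 86.5), a ratio of 1.95 (1.19 to 3.33). Under 13 other settings its log2 ratio ran from 0.84 to 4.70, so its size depends on the processing. This gate held 21 of 42 Gzmk UMIs in control and 75 of 130 (57.7%) in cKO. In cells with Cd8a or Cd8b1, the CD8 coreceptor genes, Gzmk was found in 8 of 17 control and 14 of 23 cKO cells, at 103 and 269 CPM. In Cd4-positive cells without them it was found in 1 of 20 and 5 of 36 cells. Gzma was at 79.3 and 16.6 CPM, 4.79-fold lower (2.73 to 8.76), from 10 and 6 cells. With at least 2 UMIs of a gating gene its log2 ratio was -0.052, so almost no difference was left. Gzmb was at 48.9 and 2.76 CPM, 17.7-fold lower (5.49 to 90.9), with 69.0% of its control UMIs in 1 cell. In control all 29 Gzmb UMIs were in the 23 cells with at least 3 NK markers. Over all genes with 20 UMIs in this gate, 7.23% were at least 2-fold higher and 5.02% at least 2-fold lower.

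Macrophage and dendritic gates carried almost none of these transcripts. C1qa-positive control cells had 6 UMIs, all Gzmm, and cKO cells had 31, of which 23 were in 1 cell with 21 Klrk1 and 47 Il2rb UMIs, both NK genes. In Flt3-positive cells, 1 control cell held 2 UMIs and 2 cKO cells held 7. Prf1 had 0 UMIs in the 276 control C1qa-positive cells and 3 UMIs, in 2 cells, in the 148 of cKO.

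Gzmb had a second source, in cells that met none of the 5 gates. Cells with at least 3 of 5 mast cell markers (Cpa3, Kit, Mcpt4, Tpsb2 and Cma1) numbered 50 in control and 39 in cKO, a group also formed after values were seen. Gzmb was found in 58.0% (43.2 to 71.8) and 64.1% (47.2 to 78.8) of them, with 141 and 235 UMIs. The level was 1770.0 CPM (1490 to 2087) in control and 2303 CPM (2018 to 2617) in cKO, a ratio of 1.30 (1.05 to 1.61). Here Gzmb was above its level in the Ncr1/Eomes gate in both libraries and was not lower in cKO. The mast group held 17.01% of all control Gzmb UMIs and 20.1% of those in cKO. No UMI of Gzma, Gzmc, Gzmd, Gzme, Gzmf or Gzmk was found in these cells, and Prf1 had 0 and 1. Over all cells Gzmb was at 22.0 and 22.1 CPM, a ratio of 1.00 (0.916 to 1.10), but without cells with at least 3 epithelial markers the ratio was 0.545 (0.498 to 0.597).

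The level outside cells was set beside these values. In barcodes of at most 100 UMIs, Gzmb was at 68.3 and 69.1 CPM, Gzma at 33.7 and 38.9 CPM and Gzmc at 10.5 and 13.1 CPM, with no ratio whose interval left out 1. Prf1 was at 2.33 and 13.6 CPM and Gzmf at 0 and 7.002 CPM, higher in cKO as over all cells, where Prf1 was 3.08-fold (2.66 to 3.58) and Gzmf 8.30-fold (6.23 to 11.3) higher. Without cells with at least 3 epithelial markers these ratios were 1.66 (1.44 to 1.93) and 4.52 (3.38 to 6.16). In the remaining cells without mast or NK markers the 9 genes summed to 4.89 and 4.72 CPM.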

How the data were processed

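Whole uteri were dissociated and profiled as 2 droplet libraries, 1 per group. The deposited values are raw UMI counts per gene and barcode in unfiltered matrices. Per the file headers they come from Cell Ranger 4, and from Cell Ranger 6.1.1 per the submitters' processing notes, which also name the build mm10. The annotation used is not given in the sources used here. The 9 genes and all lists were chosen with earlier results of these data known. Named genes are the 9, the members of the lists that were at least 2-fold apart, up to 4 further members of a list, and the 3 genes most alike for each of the 7 with at least 50 UMIs in the cKO gate.

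Barcodes with at least 500 genes and at most 20% mitochondrial UMIs were cells. Gates were exclusive, in the order Trdc with Cd3e, Cd3e, Ncr1 or Eomes, C1qa and Flt3. Of the cells, 22 in control and 81 in cKO met more than 1 gate. Doublets were scored against simulated ones and kept: 38 (1.04%) and 80 (1.62%) exceeded a score of 0.25. Counts were summed per gate and divided by the gate's UMIs (CPM). Intervals were exact Poisson for levels, exact binomial (Clopper-Pearson) for shares and exact conditional binomial for ratios, and the limit that a count of 0 allows was set at 3 counts of the total. Lists and the background used genes with at least 20 UMIs over both libraries, with 0.5 UMI added for log2 ratios. Thinning drew 1000 UMIs per cell and left out shallower cells. Every marker list was summed in the Ncr1/Eomes gate. Positions are from GENCODE M21 and promoters from RefSeq. Ratio code was tested on simulated independent Poisson counts, which do not mimic UMIs concentrated in a few cells. Python 3.11.15, numpy 2.4.6, scipy 1.17.1, pandas 2.3.3, scikit-learn 1.9.0 and biopython 1.88 were used. No correction between libraries was applied.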

Additional observations from a re-analysis of the deposited data

Results flagged for a closer look

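Some genes stood on opposite sides in different gates, given here as log2 ratios of cKO to control with 0.5 UMI added. In each case the difference between gates was not tested. Gzmb was at -1.77 in the Ncr1/Eomes gate and -3.95 in other Cd3e-positive T cells, but at 2.03 in gamma delta T cells, where it was 0.038 as a mean of cells, so that the contrast was lost. Gzmc was at -1.41 in the Ncr1/Eomes gate and 5.79 in gamma delta T cells, where 58.2% of its cKO UMIs came from 1 cell and thinning left 1.58. Gzmd was at -0.72 in the Ncr1/Eomes gate and 3.55 in gamma delta T cells, where 78.8% of its cKO UMIs came from 1 cell and thinning left 0.20. Without the top cell of each library Gzmd was at 0.74 in the Ncr1/Eomes gate, on the same side as in gamma delta T cells. Gzmk was at -1.07 in the Ncr1/Eomes gate and 0.94 in other Cd3e-positive T cells. After thinning, where control kept 0 Gzmk UMIs in the Ncr1/Eomes gate, it was 1.78 there, on the same side as in T cells.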

How the results depend on the processing

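Of 16 other settings, 14 were planned and 2, leaving out cells with epithelial or stromal markers and leaving out cells with at least 2 cycling genes, were chosen after seeing the data. Not every setting bears on every value: single genes were recomputed under 14 in the Ncr1/Eomes gate and 13 in the T cell gates. Values are log2 ratios of cKO to control unless stated, and the causes of the moves were not tested. No paired analysis was possible because each group had 1 library. The summed level in the Ncr1/Eomes gate, -1.07 as reported, stayed below 0 under all settings run. It was -1.79 with at least 2 UMIs of a gating gene, -1.69 without cells with epithelial or stromal markers, -1.52 with a wider NK gate (at least 3 of 6 NK genes), -1.40 as a mean of cells and after thinning (-1.397 and -1.395), -1.29 centred on the median gene, -0.99 without the top cell and -0.98 with doublets removed. In gamma delta T cells the sum, 3.37 as reported, was 1.15 both as a mean of cells and after thinning (1.150 and 1.147). In other T cells, -0.95 as reported, it was 0.028 with at least 2 gating UMIs, which turned its direction, and -0.089 after thinning. In C1qa-positive cells, 2.81 as reported, it was -0.93 with gates not exclusive, again turned, and 1.44 without the top cell. In Flt3-positive cells, 0.27 as reported, it was 4.14 with gates not exclusive. The count of members at least 2-fold higher in the Ncr1/Eomes gate fell from 1 to 0 as a mean of cells, after thinning, when centred, without cells with epithelial or stromal markers and without cycling cells, and the count lower fell from 5 to 3 without cycling cells. The share of all member UMIs in that gate, 66.3% in control and 64.2% in cKO, was 44.7% and 40.2% with at least 2 gating UMIs, 54.6% and 57.7% after thinning, 81.7% and 73.2% with the wider gate, 71.2% and 67.9% with cell-free RNA subtracted, and 69.8% and 65.7% with at least 1000 genes. In control it was 64.6% with at least 300 genes and 64.2% without the top cell, and in cKO 65.9% with at most 10% mitochondrial UMIs and 66.1% with doublets removed. Of single genes, Gzma in other T cells, -2.24 as reported, was -0.052 with at least 2 gating UMIs. Gzmd in the Ncr1/Eomes gate turned to 0.74 without the top cell and Gzmk to 1.78 after thinning, where control kept 0 Gzmk UMIs. Gzma, Gzmb and Gzmc stayed lower in the gate under all settings run, from -2.02 to -0.93 (without cycling cells) for Gzma, -2.66 to -1.62 for Gzmb and -2.34 to -1.21 for Gzmc. Gzmf stayed higher, from 0.46 without cells with epithelial or stromal markers to 5.78 with at least 2 gating UMIs, where control kept 0 Gzmf UMIs and the size depends on the 0.5 UMI added. Prf1 ranged from -0.62 to 0.24 and kept no direction. Low counts limited what can be read for Gzmm in each gate, and for all the genes described here in the C1qa and Flt3 gates. Median depth was 8690 (control) and 10602 (cKO) UMIs in C1qa-positive cells and 12732 and 13815 UMIs in Flt3-positive cells. In the Ncr1/Eomes gate it was 6343 and 5609 UMIs. The part of depth in these low counts was not tested.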
